A study of Mus musculus with 6 samples.

Results

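A set of 10 cytokine genes were read in a single clone of mouse myeloid cells with and without the inducer of an Evi1 transgene: Il4, Il13 and Il5 of the type 2 response, Il6, Osm and Lif of the interleukin 6 family, the inflammatory gene Tnf, its counterpart Il10, and the growth factor genes Il3 and Csf2. They were chosen by symbol, as every probe set whose platform annotation gives exactly 1 gene symbol from this list. That gave 11 probe sets for all 10 genes, among 18193 genes in the series, with 1 probe set per gene except Lif, which had 2. Where a gene has several probe sets it is read from the one with the highest mean over the 6 arrays.

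The cells were clone C6, haematopoietic progenitors of the Rosa26rtTA C57BL/6J background that carry the vector pRRL.TET.Evi1.IRES.EGFP, in which doxycycline drives a codon-optimized mouse Evi1 together with a green fluorescent marker. The doxycycline group was 3 arrays of cells kept under 1 µg/ml of the drug, and the withdrawal group was 3 arrays of cells taken 48 h after its removal. Every culture received mouse stem cell factor (50 ng/ml), mouse interleukin 3 (20 ng/ml), human FLT3 ligand (50 ng/ml) and human interleukin 11 (50 ng/ml), so interleukin 3, and interleukin 11 as a relative of interleukin 6, were present as proteins in both groups. The whole study rests on 1 clone, and the labels do not say whether replicates were separate cultures, so p-values measure only the spread between arrays, which may be technical.

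Interleukins 4, 13 and 5 are the signature cytokines of type 2 immunity. Beside T helper and innate lymphoid cells, basophils, mast cells and eosinophils make interleukins 4 and 13, and their genes lie in a cluster together with Rad50. Interleukin 6, oncostatin M and leukaemia inhibitory factor all signal through the shared receptor chain gp130, encoded by Il6st, while interleukin 3, interleukin 5 and GM-CSF (Csf2) share the beta chain Csf2rb. Cytokine transcripts are short-lived, and proteins of the ZFP36 family bind their AU-rich elements and speed their decay.

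After withdrawal 6 of the 10 genes rose, namely Il6, Il4, Il13, Osm, Lif and Tnf, by 1.44-fold to 1.92-fold, and none fell. The other 4, Il5, Il3, Csf2 and Il10, were dim on all arrays and did not pass. The 10 genes were chosen with earlier results of these data known. Their counts, and the shares of all genes given beside them, are therefore descriptions and test nothing about the list. Of all 18193 genes 1.2% were higher and 1.57% lower by the same rule, an adjusted p under 0.05 in limma; of all 45037 probe sets 0.79% were higher and 1.18% lower. At an unadjusted p under 0.05 in limma the same 6 genes were higher and 0 lower, against 8% and 8.26% of all genes. With trend and robust options in limma 6 were higher and 0 lower, against 3.48% and 4.02%. The median difference over the 10 genes was 0.59 on the log2 scale and that over all genes 0.01. In 6 of the 10 all 3 withdrawal arrays lay above all 3 doxycycline arrays, against 12.4% of all genes, and in none did they all lie below, against 12.2%. Without any 1 array 3 to 5 of the 10 passed, and 3 did so without withdrawal replicate 1 or 2 or doxycycline replicate 1 or 3. Without withdrawal replicate 3 and doxycycline replicate 1, which stand apart, only Il6 did.

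**Figure D1:**
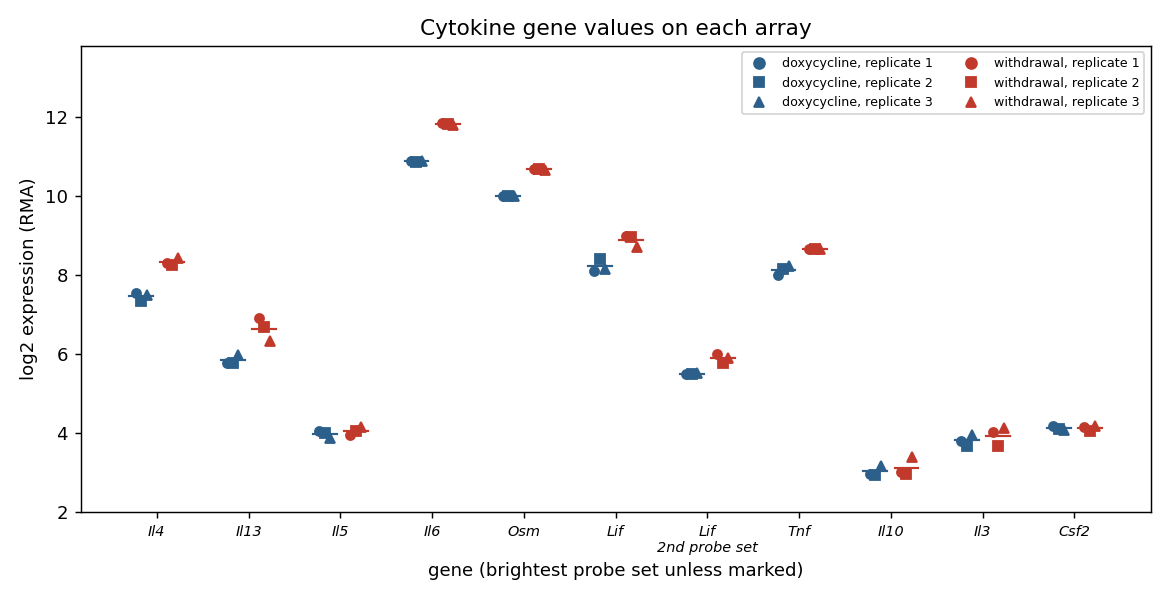
Each point is the log2 expression value (vertical axis) of a cytokine gene (horizontal axis) on 1 array, with doxycycline arrays in blue, withdrawal arrays in red, symbols for replicate numbers and bars for group means. For Il4, Il13, Il6, Osm, Lif and Tnf the 3 red points lie above the 3 blue ones, while for Il5, Il10, Il3 and Csf2 they overlap between 2.94 and 4.18.

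The arrays had close medians, from 5.22 to 5.27 on the log2 scale. Their interquartile ranges went from 3.71 in withdrawal replicate 3 to 3.92 in withdrawal replicate 1. The groups separated on the first principal component of the brighter probe sets (47.7% of the variance), while the second (31.9%) set withdrawal replicate 3 (-22.99) and doxycycline replicate 1 (-11.43) apart from the rest. The targeted gene, Mecom, was read by 3 probe sets near the floor, with group means from 2.63 to 3.66 and limma adjusted p from 0.615 to 0.881. Those probe sets were made to the natural mRNA and may not hybridise to the codon-optimized transgene, so they do not check the labels.

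The 250 bases before the start of 8 of the 10 genes were found in RefSeq (build GRCm38.p6); Osm and Il10 had no entry. The sequences of Il6, which had the smallest adjusted p, of the neighbours Il4 and Il13, which rose, and of Il5, which lies beside them and did not pass, are shown 5′ to 3′ on the strand of the gene. They span chr5:30012864-30013113 (plus strand), chr11:53618666-53618915 (minus strand, the outer of 2 start sites), chr11:53634703-53634952 (minus strand) and chr11:53720544-53720793 (plus strand). Capitals mark, on either strand, the letters TGANTCA of AP-1, the JUN and FOS dimer, and the letters GGAAA that NFAT factors read.
Il6: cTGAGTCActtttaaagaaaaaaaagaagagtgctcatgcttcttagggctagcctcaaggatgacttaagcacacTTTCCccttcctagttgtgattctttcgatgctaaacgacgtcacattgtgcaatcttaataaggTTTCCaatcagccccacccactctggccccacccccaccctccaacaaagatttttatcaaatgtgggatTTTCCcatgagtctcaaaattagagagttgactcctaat
Il4: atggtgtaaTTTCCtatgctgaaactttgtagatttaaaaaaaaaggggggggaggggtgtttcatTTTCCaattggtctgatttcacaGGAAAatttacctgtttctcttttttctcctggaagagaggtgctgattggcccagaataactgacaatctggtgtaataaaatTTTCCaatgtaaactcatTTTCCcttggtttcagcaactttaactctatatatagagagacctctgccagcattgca
Il13: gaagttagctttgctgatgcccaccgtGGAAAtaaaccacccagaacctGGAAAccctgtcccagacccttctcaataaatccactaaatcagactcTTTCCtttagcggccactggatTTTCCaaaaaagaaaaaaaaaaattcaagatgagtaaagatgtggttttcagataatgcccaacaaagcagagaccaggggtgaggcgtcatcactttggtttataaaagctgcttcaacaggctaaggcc
Il5: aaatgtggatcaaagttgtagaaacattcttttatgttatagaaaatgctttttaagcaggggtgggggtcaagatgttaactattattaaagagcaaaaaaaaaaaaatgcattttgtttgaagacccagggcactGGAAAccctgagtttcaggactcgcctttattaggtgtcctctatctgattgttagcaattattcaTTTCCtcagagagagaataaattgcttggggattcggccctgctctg

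Il4 held 5 matches to GGAAA on either strand, Il13 held 4, Il6 held 3 and Il5 held 2. All 8 windows held at least 1, and so did 55.6% of 32851 such windows in the RefSeq table. TGANTCA was found in the windows of Il6 and Lif and in 6.7% of all windows. The letters GGGRNNYYCC of NF-kB (R is A or G, Y is C or T) were also found in Il6 and Lif, against 7.3% of all windows. Their match in Il6 overlaps one of the marked GGAAA matches. GATAA, the core that GATA factors read, was in Il13, Il6, Il3 and Csf2, against 22.6% of all windows, and TTNNGNAA of the C/EBP family in Il4, Il13, Il6, Csf2 and Tnf, against 36.8%. TATAAA was in Il13 and Tnf, against 12.4%. TTCNNNGAA of the STAT factors was in none of the 8 and in 7.0% of all windows. These are matches of letters in short windows and describe the sequence alone.

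Il6 (probe set 1450297_at) encodes interleukin 6, a cytokine of the acute phase and of emergency blood cell formation. Its values under doxycycline were 10.89, 10.87 and 10.88, and after withdrawal 11.86, 11.82 and 11.79. The 3 arrays of each group lay within 0.07 of each other and a gap of 0.90 separated the groups. The difference was 0.94 ± 0.06 (SE, n = 3 per group), a 1.92-fold rise with a 95% interval of 1.74 to 2.12 (limma adjusted p = 0.000568). This call held without any 1 array and also without both arrays that stand apart, when the difference was 0.96 (limma adjusted p = 0.0280).

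Osm (1438767_at), the oncostatin M gene, stood at 9.99, 9.99 and 10.01 under doxycycline and at 10.69, 10.69 and 10.65 after withdrawal. A gap of 0.64 separated the groups. Osm rose by 0.68 ± 0.06 (SE, n = 3 per group), which is 1.60-fold with an interval of 1.45 to 1.76 (limma adjusted p = 0.00248). Its call held without any 1 array and was lost without both arrays that stand apart (limma adjusted p = 0.0605), at a difference of 0.69.

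Lif, the gene of leukaemia inhibitory factor, is the direct neighbour of Osm on chromosome 11. Its brighter probe set (1421207_at) gave 8.10, 8.40 and 8.16 under doxycycline and 8.99, 8.96 and 8.70 after withdrawal. The groups did not overlap, though the arrays within each were spread over 0.30 and 0.28. The difference was 0.66 ± 0.11 (SE, n = 3 per group), or 1.58-fold with an interval of 1.32 to 1.89 (limma adjusted p = 0.0313). The second probe set (1450160_at) gave 5.51, 5.49 and 5.53 against 6.01, 5.79 and 5.90, again without overlap, and its difference of 0.39 ± 0.08 just missed the threshold (limma adjusted p = 0.0502). The call of the brighter probe set was lost without withdrawal replicate 1 or 2 or doxycycline replicate 1 or 3 (limma adjusted p up to 0.141), while the difference ranged from 0.60 to 0.75 over the 6 fits without 1 array. Without both arrays that stand apart it was 0.69 (limma adjusted p = 0.123).

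Il4 (1449864_at), which encodes the cytokine that drives IgE class switching, was at 7.55, 7.34 and 7.49 under doxycycline and at 8.31, 8.26 and 8.43 after withdrawal. The lowest withdrawal array exceeded the highest doxycycline array by 0.71. Il4 rose by 0.87 ± 0.08 (SE, n = 3 per group), 1.83-fold with an interval of 1.60 to 2.09 (limma adjusted p = 0.00325). The call held without any 1 array and was lost without both arrays that stand apart (limma adjusted p = 0.0547), where the difference was 0.86.

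Il13 (1420802_at), whose protein acts on epithelium and mucus production through a receptor chain shared with interleukin 4, gave 5.79, 5.77 and 5.98 under doxycycline. After withdrawal it gave 6.91, 6.70 and 6.33, the widest spread of the 11 probe sets, with withdrawal replicate 3 the lowest of its group. The groups were still 0.34 apart. The difference was 0.80 ± 0.15 (SE, n = 3 per group), 1.74-fold with an interval of 1.37 to 2.2 (limma adjusted p = 0.0431). It passed without withdrawal replicate 3, at 0.96 (limma adjusted p = 0.0139), and not without any 1 of the other 5 arrays (limma adjusted p from 0.0797 to 0.173). It was also lost when arrays were centred on their medians (limma adjusted p = 0.0507) and without both arrays that stand apart, at 0.93 (limma adjusted p = 0.0922).

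Il5 (1450550_at), the gene of the main growth factor of eosinophils, did not pass. Its upstream sequence is the one printed with those of Il4 and Il13. Its values were 4.05, 4.0 and 3.89 under doxycycline and 3.96, 4.05 and 4.16 after withdrawal, and the groups overlapped. The difference was 0.08 ± 0.08, with a 95% interval from -0.11 to 0.27 (limma adjusted p = 0.733). Il5 lay at the 29.5th percentile of all probe sets by its mean, a range where RMA values compress differences and where a low transcript level cannot be told from none.

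The gene order in this stretch of chromosome 11 is Kif3a, Il4, Il13, Rad50, Il5 and Irf1. The genes without a cytokine product in this stretch gave no call: Kif3a differed by -0.05 ± 0.07, Rad50, a DNA repair gene whose introns hold control elements of the cluster, by 0.03 ± 0.07, and Irf1, beside Il5, by -0.03 ± 0.07. Of 16 measured genes on a list of neighbours of the type 2 cytokine genes, 0 passed in either direction in limma, while 1 was lower and 0 higher at an unadjusted p under 0.05, and with trend and robust options 1 was lower and 0 higher. The largest difference on the list was that of Septin8, at -0.48 ± 0.10 (limma adjusted p = 0.0727), followed by Slc22a4 at 0.18 ± 0.09. The list had a median difference of 0.04, beside 0.01 over all genes.

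Tnf (1419607_at), the gene of tumour necrosis factor, gave 8.0, 8.17 and 8.24 under doxycycline and 8.65, 8.65 and 8.67 after withdrawal. The withdrawal arrays were within 0.02 of each other and doxycycline replicate 1 was the lowest. The difference was 0.52 ± 0.08 (SE, n = 3 per group), 1.44-fold with an interval of 1.27 to 1.63 (limma adjusted p = 0.0215). Each fit that omitted a single array ended the call, with adjusted p in limma from 0.0554 to 0.0971 and differences from 0.46 to 0.58. Without both arrays that stand apart the difference was 0.45 (limma adjusted p = 0.140). Tnf sits between Ltb and Lta on chromosome 17, which encode lymphotoxins. Ltb fell by 0.40 on the log2 scale (from 9.49 to 9.09, limma adjusted p = 0.0438), a call lost without any 1 array (adjusted p up to 0.203 over the alternatives) and with arrays centred on their medians (adjusted p = 0.0611), while Lta, at 4.38 and 4.29, did not pass.

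The 3 remaining genes were dim and their groups overlapped. Il10 (1450330_at), which encodes a cytokine that restrains inflammation, gave 2.98, 2.94 and 3.18 against 3.01, 2.97 and 3.41 after withdrawal, a difference of 0.10 with an interval from -0.21 to 0.40 (limma adjusted p = 0.813). Il3 (1450566_at) gave 3.82, 3.68 and 3.97 against 4.03, 3.67 and 4.12, a difference of 0.12 with an interval from -0.19 to 0.43 (limma adjusted p = 0.753). Csf2 (1427429_at), the GM-CSF gene that lies directly beside Il3, gave 4.18, 4.10 and 4.09 against 4.16, 4.06 and 4.18, a difference of 0.01 with an interval from -0.15 to 0.17 (limma adjusted p = 0.964). With Il5 these genes lay between the 9.28th and 31.6th percentile of all probe sets, while 25 measured genes of unrelated tissues, such as liver, pancreas and brain, had a median at the 35.3rd percentile. Probe sets differ in affinity, so percentiles give no order of transcript amounts. At such levels the arrays do not show whether these transcripts were present.

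**Figure D2:**
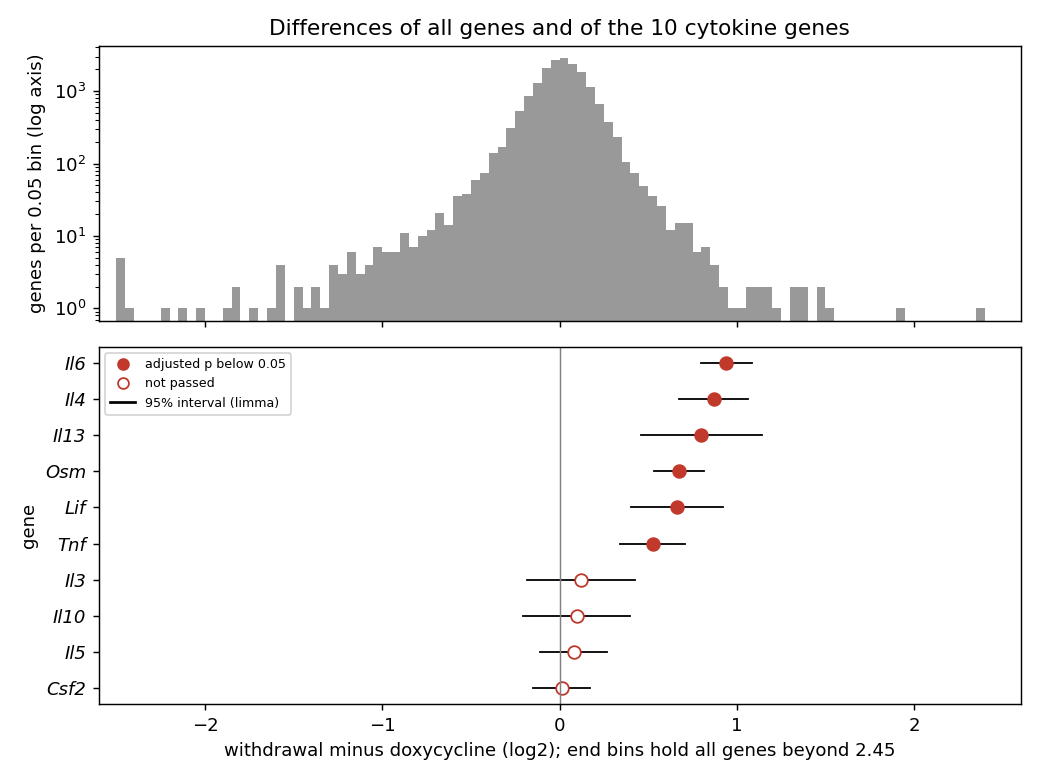
The upper panel counts genes (log axis) by their difference on the log2 scale, withdrawal minus doxycycline, in bins of 0.05. The lower panel gives the difference of each cytokine gene with its 95% interval from limma, filled where the adjusted p was under 0.05; 6 genes lie between 0.52 and 0.94 and 4 between 0.01 and 0.12.

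The smallest of the 6 rises was that of Tnf, at 0.52. Among all 18193 genes 130 had a difference of at least that size. They include the 6 cytokine genes by the choice of this limit. With 3 arrays against 3 the smallest two-sided exact permutation p is 0.1, which each of the 6 genes reached on its brighter probe set. Whether the 6 rises differ in size from each other was not tested, because they come from different probe sets.

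**Figure D3:**
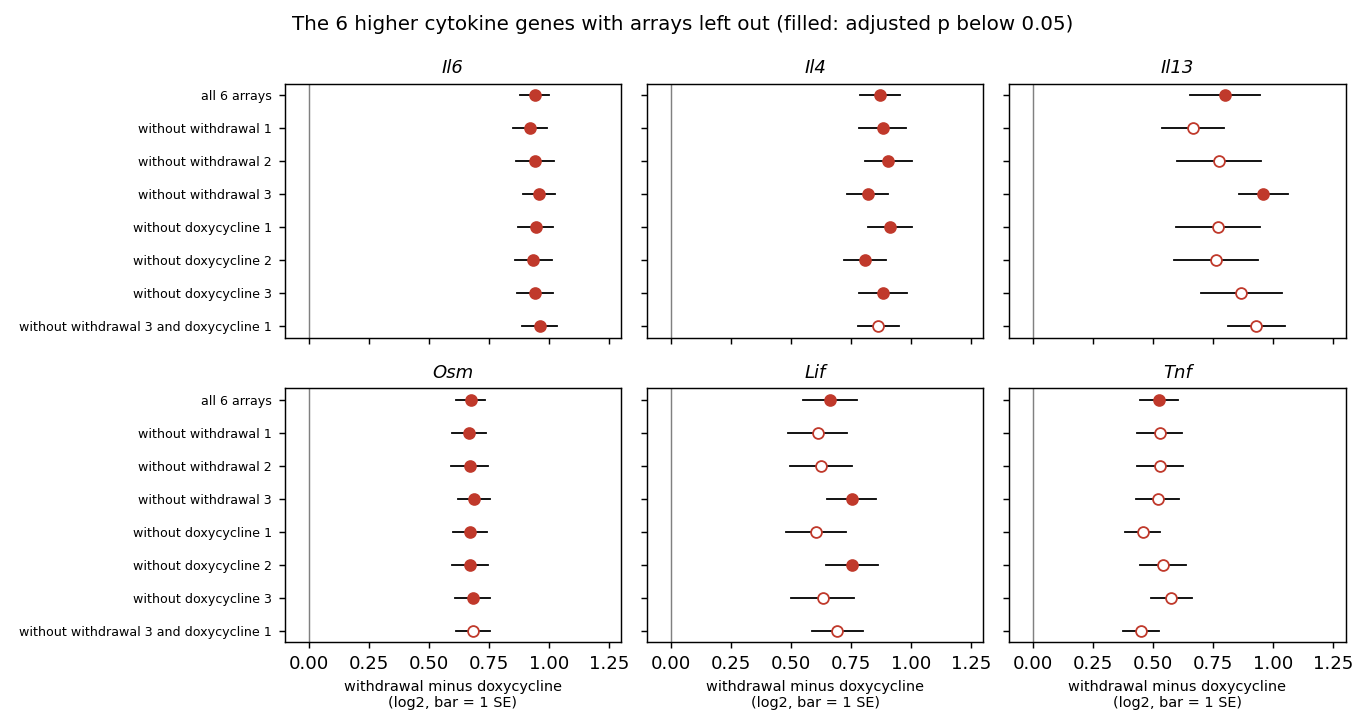
Each panel shows a cytokine gene that rose, with the difference on the log2 scale (horizontal axis, bar of 1 SE) in the fit of all 6 arrays, in fits without 1 array, and without both arrays that stand apart (vertical axis). Filled points passed an adjusted p of 0.05 in limma: Il6, Il4 and Osm did so in every fit without 1 array, and Il6 alone without both arrays that stand apart, while every point lies to the right of 0.

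A list of regulators of cytokine genes held 30 measured genes, all of transcription factors except Nfkbia, the gene of an NF-kB inhibitor. Of the 30, 3 rose and none fell in limma, where 9 were higher and 3 lower at an unadjusted p under 0.05. With trend and robust options 7 were higher and 1 lower. Their median difference was 0.06, beside 0.01 over all genes. Cebpa, a master factor of granulocytes, went from 9.27, 9.26 and 9.12 to 9.97, 9.98 and 9.93, with no overlap, a rise of 0.74 ± 0.07 (limma adjusted p = 0.00307) that held without any 1 array. Jun, the AP-1 subunit, rose by 0.53 ± 0.08 (limma adjusted p = 0.0207) and Ets1 by 0.55 ± 0.09 (limma adjusted p = 0.0342). Among the fits without 1 array, Jun passed only without withdrawal replicate 3 and Ets1 only without withdrawal replicate 2. Averaged over its probe sets, Ets1 differed by 0.33 (limma adjusted p = 0.0267). Fosb (0.58 ± 0.12, limma adjusted p = 0.0690) and Gata1 (-0.36 ± 0.10, limma adjusted p = 0.141) did not pass. Fosb did pass under other settings, such as probe sets averaged per gene (limma adjusted p = 0.0405). Gata1 passed only with trend and robust options (limma adjusted p = 0.0298). Gata2, which basophils and mast cells need, was at 10.45 and 10.66 and did not pass, and Gata3, the type 2 factor of lymphocytes, was at 3.13 and 3.18, at the 11.0th percentile. Without both arrays that stand apart 0 of the 30 passed.

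Among 10 genes that control the stability of cytokine mRNA, 2 fell and none rose in limma, where 2 were higher and 2 lower at an unadjusted p under 0.05, and 1 and 2 with trend and robust options. Zfp36l2 went from 12.08, 11.97 and 12.12 under doxycycline to 11.48, 11.52 and 11.62, and Zfp36l1 from 9.57, 9.53 and 9.44 to 9.06, 9.05 and 8.90. Both encode relatives of the AU-rich element binding protein ZFP36, and their groups did not overlap. Zfp36l2 differed by -0.52 ± 0.07 (limma adjusted p = 0.0168) and Zfp36l1 by -0.51 ± 0.08 (limma adjusted p = 0.0207). Among the fits without 1 array, Zfp36l2 passed only without withdrawal replicate 3 and Zfp36l1 only without withdrawal replicate 1 or 3, and neither passed without both arrays that stand apart. The mean of the probe sets of Zfp36l2 differed by -0.32 and did not pass (limma adjusted p = 0.127). Zfp36 itself (0.26 ± 0.08, limma adjusted p = 0.188) and Auh (0.18 ± 0.06) did not pass, and Zc3h12a, the RNase Regnase-1, was at 6.30 and 6.32. The list's median difference was 0.01.

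Of 16 measured receptor genes, 1 rose and 0 fell in limma, where 4 were higher and 1 lower at an unadjusted p under 0.05, and 4 and 0 with trend and robust options. Il5ra, the specific chain for interleukin 5, rose from a dim 4.33, 4.22 and 4.10 to 4.67, 4.87 and 4.73, by 0.54 ± 0.09 (limma adjusted p = 0.0286), and lost its call without any 1 array (adjusted p up to 0.142 over the alternatives). Its ligand gene Il5 was the dim one of the type 2 group. Csf2rb, the chain shared by the receptors of interleukin 3, interleukin 5 and GM-CSF, was bright at 12.80 and 13.14 and differed by 0.34 ± 0.07 (limma adjusted p = 0.0622). Tnfrsf1b, a receptor of TNF, differed by 0.33 ± 0.08 (limma adjusted p = 0.104), and neither passed. With probe sets averaged per gene, Csf2rb differed by 0.40 and passed (limma adjusted p = 0.00597). Tnfrsf1b then differed by 0.19 and did not pass (limma adjusted p = 0.124). Both passed with trend and robust options, with array weights and when only probe sets above the median level entered.

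For the interleukin 4 receptor chain Il4ra the means were 8.27 and 8.28 (difference 0.01), and for Il13ra1 5.05 and 4.82. Of the gp130 group, Il6st was at 5.98 and 6.02, Il6ra at 7.36 and 7.15, Lifr at 4.95 and 4.75 and Osmr at 3.84 and 3.94, none of which passed in limma (adjusted p from 0.287 to 0.877). Osmr lay at the 27.0th percentile of all probe sets.

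Downstream of these receptors, 1 of 17 measured kinase, STAT, SOCS and adaptor genes fell and 0 rose in limma, where 3 were higher and 2 lower at an unadjusted p under 0.05, and 2 and 2 with trend and robust options. Socs2, a feedback inhibitor of cytokine receptors, differed by -0.39 ± 0.07 (limma adjusted p = 0.0485), a call lost without any 1 array (adjusted p up to 0.188 over the alternatives). It was also lost with arrays centred on their medians (limma adjusted p = 0.0696), without probe sets of less specific design, those ending in _x_at or _s_at (limma adjusted p = 0.0519), and with the mean of its probe sets, which differed by -0.15 (limma adjusted p = 0.176). Socs1, another member of that family, differed by 0.40 ± 0.09 (limma adjusted p = 0.0869) and Ptpn6, the phosphatase SHP-1, by -0.27 ± 0.08 (limma adjusted p = 0.160), and neither passed. Socs1 did pass under other settings, such as probe sets averaged per gene (limma adjusted p = 0.0467). Ptpn6 passed only with trend and robust options (limma adjusted p = 0.0122). Stat6, the factor that interleukins 4 and 13 activate, was at 9.72 and 9.95 (limma adjusted p = 0.280).

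**Figure D4:**
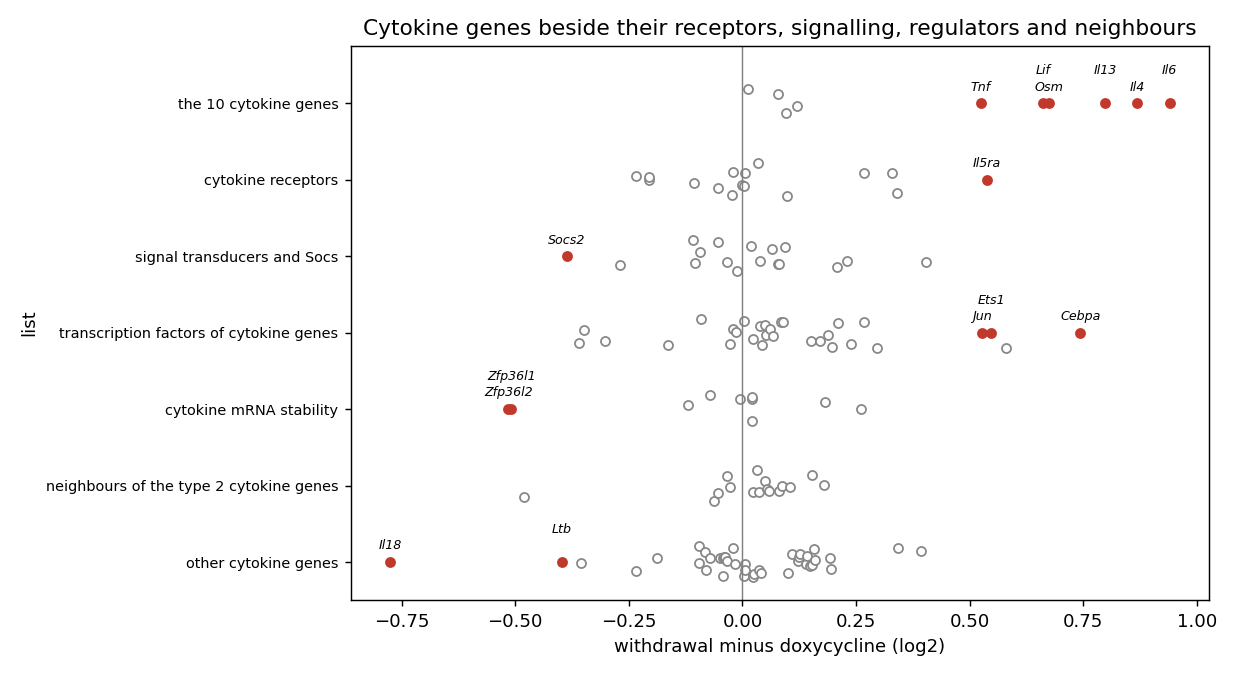
Each point is a gene, placed by its difference on the log2 scale, withdrawal minus doxycycline (horizontal axis), in the list named on the vertical axis; filled and named points passed an adjusted p of 0.05 in limma and open points, moved apart vertically for visibility, did not. The 6 filled cytokine genes lie to the right of 0.5, whereas the filled points of the other cytokine genes, Il18 and Ltb, and of the mRNA stability list, Zfp36l1 and Zfp36l2, lie to the left of 0.

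A list of other cytokine genes held 2 calls, both lower. Of 40 measured, none rose and 2 fell in limma, where 2 were higher and 5 lower at an unadjusted p under 0.05, and 0 and 3 with trend and robust options. Il18, an inflammasome-processed cytokine of the interleukin 1 family, went from 6.92, 6.95 and 6.70 to 6.14, 6.03 and 6.07, with no overlap. It differed by -0.78 ± 0.09 (limma adjusted p = 0.00607), and its call held without any 1 array but not without both arrays that stand apart (limma adjusted p up to 0.123 over the alternatives). Il15 (-0.36 ± 0.08, limma adjusted p = 0.0669) and Tgfb3 (0.39 ± 0.12, limma adjusted p = 0.188) did not pass. The median difference of the list was 0.01, and 26 of its 40 genes were below the median level of all probe sets.

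Basophils, mast cells, eosinophils and T cells are known makers of several of these cytokines. In RNA of whole cultures, more cells of a type and more RNA per cell cannot be told apart. Of 13 measured basophil and mast cell markers 4 rose and none fell in limma (6 higher and 2 lower at an unadjusted p under 0.05, and 5 and 1 with trend and robust options). Mcpt8, the basophil protease, rose from 12.20 to 13.56, and Ms4a2, the beta chain of the IgE receptor, from 8.70 to 9.87. Hdc, the enzyme that makes histamine, rose from 11.31 to 11.98, by 0.66 ± 0.06 (limma adjusted p = 0.00347), and held its call without any 1 array. Cd200r3, a surface receptor of basophils and mast cells, rose by 0.54 ± 0.08 (limma adjusted p = 0.0207), and among the fits without 1 array it passed only without withdrawal replicate 3. Kit, the stem cell factor receptor of mast cells and progenitors (0.26 ± 0.10, limma adjusted p = 0.277), and Mitf, a factor that mast cells need (-0.26 ± 0.07, limma adjusted p = 0.138), did not pass. The log2 of the list's summed level was 14.47 to 14.50 under doxycycline and 15.03 to 15.08 after withdrawal. Bright genes dominate such a sum. Without Cpa3, the brightest, it was 13.44 to 13.49 under doxycycline and 14.37 after withdrawal. The lowest of these markers was Mcpt4, at the 33.6th percentile. With 1 array left out 3 or 4 passed, and 2 did so without both arrays that stand apart.

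Of 7 eosinophil markers 6 rose and none fell in limma, where 6 were higher and 0 lower also at an unadjusted p under 0.05 and with trend and robust options. They were led by Alox15 (1.14 ± 0.10), Epx (0.75 ± 0.07), Prg3 (0.74 ± 0.08) and Siglecf (0.72 ± 0.08), while Ccr3, at the 19.7th percentile, did not pass. The summed level of the 7 was 13.16 to 13.25 under doxycycline and 13.71 to 13.77 after withdrawal. Without Prg2, the brightest, it was 11.34 to 11.45 and 12.10 to 12.21. With 1 array left out 4 or 5 passed, and 1 did so without both arrays that stand apart. The 6 include Il5ra, the dim receptor gene named above, whose call was lost without any 1 array.

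None of the T cell and innate lymphoid markers passed as higher: of 13 measured, 0 were higher and 1 lower in limma, with 1 higher and 1 lower at an unadjusted p under 0.05, and 0 and 1 with trend and robust options. The one that fell was Thy1, which progenitors also carry, by 0.76 on the log2 scale (from 11.13 to 10.38, limma adjusted p = 0.00221). Rora, a factor of innate lymphoid cells, differed by 0.22 ± 0.09 (limma adjusted p = 0.304) and Cd2 by -0.21 ± 0.17 (limma adjusted p = 0.651), and neither passed. Of the T cell receptor genes Cd3e was at 6.01 and 5.91 and Cd3g at 4.15 and 4.02, and Gata3 and Cd2 lay at the 11.0th and 20.8th percentile. The list's summed level was 11.74 to 11.82 under doxycycline and 11.33 to 11.37 after withdrawal. Thy1 was the brightest of the 13, and without it the sum was 10.29 to 10.30 and 10.29 to 10.34. Differences were above 0 for 6 of the 13.

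Macrophages are a main source of TNF and interleukin 6. Of 12 macrophage markers 3 fell and none rose in limma, where 0 were higher and 5 lower at an unadjusted p under 0.05, and 0 and 3 with trend and robust options. These were Cd68 (-0.40 ± 0.06), Csf1r (-0.38 ± 0.06) and C1qc (-0.37 ± 0.06), while C1qb (-0.32 ± 0.12) and C1qa (-0.28 ± 0.06, limma adjusted p = 0.0827) did not pass. The mean of the probe sets of Csf1r differed by -0.21 and did not pass (limma adjusted p = 0.147). Omitting a single array left 0 to 2 of the list past the threshold, and omitting both arrays that stand apart left 0. The summed level of the list was 13.03 to 13.06 under doxycycline and 12.77 to 12.84 after withdrawal. Without Csf1r, the brightest, it was 12.59 to 12.65 and 12.39 to 12.45. Of 12 markers of stroma and endothelium none passed in limma (1 lower and 0 higher at an unadjusted p under 0.05, 0 with trend and robust options). Pdgfra (-0.21) and Kdr (0.18) differed the most, and the summed level was 10.16 to 10.27 under doxycycline and 10.26 to 10.35 after withdrawal. The part of these cell types in the differences of the cytokine genes was not tested.

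The genes whose values ran most like those of each risen cytokine gene were sought by Pearson's r over the 6 arrays. Candidates were 7973 or 7974 genes whose higher group mean reached 7. A gene could enter through 1 group alone, as did Oscp1 (7.44 after withdrawal, 6.92 under doxycycline) and Sucnr1 (7.44 and 5.52). Il13, at 6.64 and 5.85, was below this limit and could not be listed for another gene. Because the arrays form 2 groups, any gene with a step between them and little spread has an r near 1, and between 160 and 375 genes exceeded 0.95 for each cytokine gene. For Il6 the nearest was Osm (r = 0.9995), followed by Oscp1, Hmgn3, Sucnr1 and Niban1. For Osm they were Il6, Mcpt8, Gfi1, Oscp1 and Sucnr1. For Il4 they were Snhg6, Hsd11b1, Cklf, Cyb5b and Slc40a1, and for Tnf Ada, Tssc4, Tk1, Tecpr2 and Slc35b2. For Lif they were Fads1, Atp6ap2, Srebf2, Mapk13 and Triobp, and for Il13 Map3k3, Slbp, Cebpb, Tmem39a and Ckap2l. All genes listed for Il6 and Osm passed in limma, but of those listed for the other 4 only Snhg6, Slc40a1 and Ada did. The genes listed for Lif and Il13 differed by only 0.07 (Slbp) to 0.36 (Mapk13). By this measure Il6 and Osm were the nearest to each other. Both had little spread within each group (SD up to 0.03). Lif, the chromosomal neighbour of Osm, had an SD of 0.16 in each group and was not among the 5 nearest to Osm. Such ranks depend on spread as well as on the step, so they do not show which genes belong together.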

How the data were processed

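RNA of 6 samples was amplified as cDNA, labelled with biotin and hybridised to 1 array each. The authors deposited log2 expression values per probe set, made with RMA per the submitters' processing notes, which name no version or chip definition. RMA aligns the distributions of the arrays, which would remove a shift shared by most transcripts, and compresses differences near the floor.

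Of 45101 rows, 64 control probe sets were left out and 45037 tested. The platform annotation gave 34945 of them 1 symbol, 932 several and 9160 none, and no gene was named from several. The groups (withdrawal minus doxycycline) were compared in limma 3.58.1 (lmFit, then eBayes; R 4.3.3) over all 6 arrays, with 4 residual and 3.54 prior degrees of freedom, and two-sided p-values were adjusted over all 45037 by Benjamini-Hochberg (threshold 0.05). Intervals are at 95% from the same fit. A gene is said to rise or fall where it passed.

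The members, the lists and the naming rule were chosen with earlier results of these data known, so counts over them are descriptions. Named are all members, from each list the 4 passed genes of smallest adjusted p and the 2 largest differences that did not pass, any gene of a list of at most 20, and the 5 genes most correlated with each risen member. Lta, Gata2 and Gata3 were named after their values were seen. List genes were matched by symbol or, in 1 case, by RefSeq identifier, and 1 RefSeq promoter window per start site was searched for motifs.

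On simulated data with the real means and spreads, with 45037 probe sets, the fit recovered 85% of 100 changes of 1 and 41% of 100 changes of 0.5 (log2), all above the median level, and 5 of 131 calls were false. The simulated noise was independent between probe sets, whereas real arrays share deviations, so these rates may not carry over. The labels do not say whether the replicate numbers pair the arrays. Deviations of same-numbered arrays correlated at -0.30, 0.46 and -0.03, which with so few arrays cannot decide it. The alternatives were each array left out, a replicate block, centred arrays, repeated quantile normalization, trend and robust options and array weights. Others were a filter on dim probe sets, probe sets averaged per gene and the omission of probe sets ending in _x_at or _s_at. The fit without both arrays that stand apart was added after seeing the data. Python 3.11.15 with matplotlib 3.10.9 drew the figures.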

Additional observations from a re-analysis of the deposited data

How the results depend on the processing

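Of the 10 cytokine genes 6 were called higher and 0 lower in the analysis as reported, and 0 were called lower under each of the 15 alternatives. The higher count was 3 to 5 when 1 array was left out, 3 with the replicate block (Il6, Il4 and Osm), 1 without both arrays that stand apart, 5 with centred arrays and 6 under each other alternative. The differences of the 6 kept their direction under each of the 15, from 0.45 to 0.96. Il6 passed under all 15, Il4 and Osm under 14, Lif under 9 and Il13 and Tnf under 7.

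Over all probe sets 356 were higher and 530 lower. These counts were 88 to 256 and 173 to 346 when 1 array was left out, 94 and 197 with the replicate block, 1071 and 1389 with trend and robust options, 758 and 962 with array weights, 862 and 1082 when only probe sets above the median level entered, and 28 and 94 without both arrays that stand apart. Fewer arrays leave fewer degrees of freedom; the cause of the other shifts was not tested. Whether the replicate numbers pair the arrays is not known, so a call lost under the block is not described as a weaker effect.

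Differences near 0 changed sign without ever passing. Csf2 was at -0.0016 to -0.012 without withdrawal replicate 1 or 3 (0.049 at the highest without 1 array), at -0.00029 and -0.0059 without doxycycline replicate 2 and 3, at -0.0054 with repeated quantile normalization and at -0.019 with array weights. Il10 was at -0.043 without withdrawal replicate 3 (0.17 at the highest without 1 array), at -0.0037 with array weights and at -0.069 without both arrays that stand apart, and Il3 at -0.020 with array weights. Kdr was at -0.0075 without both arrays that stand apart. The 4 dim cytokine genes lie where the arrays hold little signal over background, and the filter on dim probe sets removed them.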

Other observations

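The list of genes of unrelated tissues, used to show where unexpressed genes lie, held exceptions. Apoa1, the main apolipoprotein of high-density lipoprotein, differed by -1.19 ± 0.13 (limma adjusted p = 0.00588), from 7.06 under doxycycline to 5.86 after withdrawal, and its call held without any 1 array. Cela1, a pancreatic elastase gene, was bright in both groups at 10.43 and 10.29 and did not pass. Pmch, a hypothalamic neuropeptide gene, differed by 0.22 ± 0.19 (limma adjusted p = 0.677) and did not pass. Of the 25 measured genes of this list 1 fell and none rose in limma, where 0 were higher and 1 lower at an unadjusted p under 0.05, and 0 and 1 with trend and robust options.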
